A study of Mus musculus with 9 samples.

Results

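The NF-kappaB genes described here are 10 of the 55536 genes in the expression table. They were chosen by name, with earlier results of these data known. They are the 5 subunits of the transcription factor, Nfkb1, Nfkb2, Rel, Rela and Relb, and 5 of its inhibitors and feedback regulators, Nfkbia, Nfkbie, Nfkbiz, Bcl3 and Tnfaip3. All 10 passed the filter on low values in each comparison.

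NF-kappaB is a family of dimeric transcription factors that carry signals from cytokine receptors, Toll-like receptors and DNA damage to genes of inflammation and survival. In resting cells, IkappaB proteins such as IkappaB-alpha hold the dimers in the cytoplasm until IkappaB kinase marks them for degradation, and the freed dimers then switch on new IkappaB-alpha and A20, which end the response. In myeloid cells the pathway drives cytokine production, and in acute myeloid leukemia it is often active in primitive cells.

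The leukemia cells came from a mouse model in which c-kit+ cells were infected with a retrovirus carrying MLL-AF9 and GFP, so all 3 groups share the fusion gene and the marker. The donor cells were wild type (AML-WT) or came from IRF7-/- mice, in which a stretch of exons of the interferon regulatory factor gene Irf7 is replaced by a PGK-beta-geo cassette. GFP+ cells (1000000 per mouse) were placed into C57BL/6J mice of 6 to 8 weeks that were not irradiated, and leukemia cells were sorted from bone marrow at day 18. RNA was sequenced from 3 sorted populations with 3 libraries each. They are named WT c-kit-, WT c-kit+ and IRF7-/- c-kit+ in the labels, and AML-WT or AML-IRF7-/- before the sort name in the plots. The first step, in what follows, is WT c-kit+ set against WT c-kit-, and the second is IRF7-/- c-kit+ set against WT c-kit+. C-kit marks primitive leukemia cells. The first pair of groups was sorted apart by c-kit, and the labels of the second differ in the donor genotype. Both pairs also differed in markers of maturation, given below. No label says whether the libraries of a group came from separate mice, so the p-values measure only the spread between these samples, which may be technical.

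Values are TPM, transcript abundances scaled for gene length and library total. Kit lay between 0.52 and 3.03 TPM in WT c-kit-, between 50.7 and 58.5 TPM in WT c-kit+ and between 70.3 and 85.7 TPM in the libraries labelled IRF7-/- c-kit+, which follows the sort. Irf7 went against its label. It was at 5.31, 3.91 and 3.36 TPM in WT c-kit+, while the libraries labelled IRF7-/- c-kit+ held 12.8, 5.97 and 7.95 TPM, a change of 0.89 on the log2 scale (SE 0.27, limma adjusted p = 0.0321). These values are for the whole gene and can include exons outside the replaced stretch, so the genotype is given here only as the labels give it. The 10 most abundant genes took 13.1% to 17.3% of all TPM in WT c-kit+ and 9.39% to 10.3% in the other 6 libraries. Pearson's r of log2(TPM + 1) over 13962 genes was 0.973 to 0.984 within groups and 0.851 to 0.932 between groups.

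Of the 10 genes, 7 had a promoter in the RefSeq table used here (build GRCm38.p6, from 250 bases before to 50 bases after each start site), all but Nfkb1, Nfkbiz and Relb. The kappaB consensus, a motif of 10 bases searched on both strands, matched in 6 of these 7 genes, against 9.55% of the 27025 genes in the table. By promoter it matched in 8 of 10, against 8.46% of 32851. Rela had no match in this window. Tnfaip3 had 2 promoters, and its matches all lay before the same start site. The match nearest to a start site is printed below for each gene that had one, with a second for Nfkb2, because genes with such matches are described together in the text. Each run is 30 bases on the strand of the gene, and the capitals mark the 10 bases of the match.
Rel, chr11:23771042-23771071 (minus strand), match 92 bases before the start site: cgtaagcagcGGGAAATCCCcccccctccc
Nfkb2, chr19:46304716-46304745 (plus strand), match 11 bases before a start site: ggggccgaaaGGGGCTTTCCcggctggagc
Nfkb2, chr19:46305695-46305724 (plus strand), match 10 bases after another start site: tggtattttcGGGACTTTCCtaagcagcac
Nfkbia, chr12:55492657-55492686 (minus strand), match 29 bases before the start site: tgactggcttGGAAATTCCCcgcgcctgac
Nfkbie, chr17:45555584-45555613 (plus strand), match 106 bases before the start site: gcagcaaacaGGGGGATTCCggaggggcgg
Tnfaip3, chr10:19015403-19015432 (minus strand), match 12 bases before the start site: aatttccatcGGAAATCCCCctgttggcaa
Bcl3, chr7:19822734-19822763 (minus strand), match 2 bases after the start site: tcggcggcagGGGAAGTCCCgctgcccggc
The matches of Rel and Bcl3 can be read on both strands, and the other 5 printed on a single strand. A match of letters is a description and was not tested for binding.

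Most of the NF-kappaB genes were highest in WT c-kit-, lower in WT c-kit+ and lower again in the libraries labelled IRF7-/- c-kit+. In WT c-kit+ against WT c-kit-, 9 of the 10 fell and 0 rose by limma at an adjusted p under 0.05, where 27.6% of the 13261 genes tested fell and 14.0% rose. Rises were also 0 at an unadjusted p under 0.05. Asking also for a change of 1 or more in size on the log2 scale, 5 fell and 0 rose, beside 9.61% and 4.83% of all genes tested. That background was 1275 genes lower and 641 higher, and it came to 1046 and 776 after quantile normalization and to 1027 and 797 after median centring. The median log2 fold change of the 10 was −0.88, and that of all genes tested was −0.08. Nfkbia was the member that did not pass.

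In the libraries labelled IRF7-/- c-kit+ against WT c-kit+, 7 of the 10 fell and 1, Bcl3, rose, where 16.1% of the 13238 genes tested fell and 31.9% rose. Past both thresholds there was 1 fall, that of Nfkbiz, and 0 rises, beside 5.39% and 6.30% of all genes tested. The balance of that background depended on the scaling, with 714 genes lower and 834 higher here, 784 and 723 after quantile normalization, 785 and 727 after median centring, and 803 and 708 with neutrophil genes left out and the libraries rescaled. The median log2 fold change of the 10 was −0.47, against 0.12 for all genes tested. Nfkb1 and Nfkbie did not pass. Against WT c-kit-, the libraries labelled IRF7-/- c-kit+ had 9 of the 10 lower and 0 higher, beside 28.7% and 30.7% of 13510 genes. Past both thresholds 6 were lower and 0 higher, beside 11.9% and 8.40%, and at an unadjusted p under 0.05 rises were again 0. The median of the 10 was −1.32, against 0.03 for all genes tested. The 3 comparisons share their groups of libraries, so the counts are not independent of each other.

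**Figure D1:**
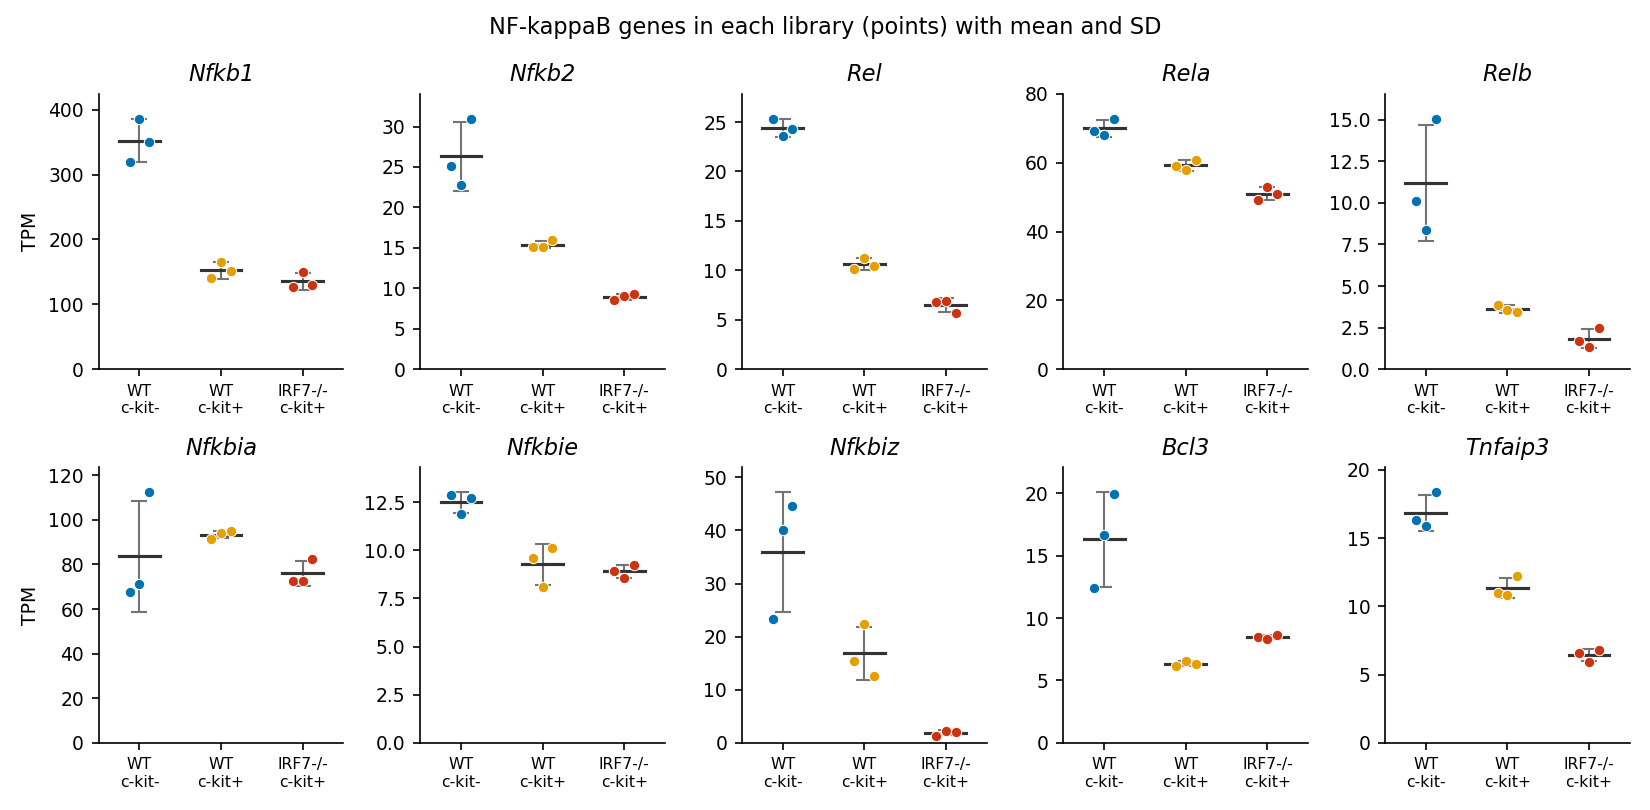
TPM of each of the 10 genes (vertical axis, from 0, with its own scale per gene) in the 3 groups, as points for the 3 libraries, with a bar at the mean and whiskers of 1 SD. Nfkbiz lies between 1.36 and 2.31 TPM in the libraries labelled IRF7-/- c-kit+ and at 12.6 TPM or more in all others, while Nfkbia overlaps between WT c-kit- and each other group.

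Nfkb1, which encodes p105 and its product p50, the DNA-binding partner of Rela, was the most abundant of the 10 in each group. It lies on chromosome 3 (GRCm38, 135584655 to 135691547, minus strand). The WT c-kit- libraries held 319.6, 386 and 350.2 TPM of Nfkb1. WT c-kit+ held 139.9, 165 and 151 TPM, all below the former group. In the libraries labelled IRF7-/- c-kit+ the values were 126, 149.6 and 129.7 TPM, and 1 of them lay among the WT c-kit+ values. Nfkb1 fell from WT c-kit- to WT c-kit+ by 1.20 on the log2(TPM + 1) scale (SE 0.09, adjusted p = 0.000131). Its change between the c-kit+ groups was −0.17 (95% confidence interval −0.38 to 0.04, adjusted p = 0.161). It passed the test after median centring (adjusted p = 0.0462) and after the neutrophil genes were left out and the libraries rescaled (adjusted p = 0.0229).

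Rela encodes p65, the subunit that carries the activation domain of the main dimer. It lies on chromosome 19 (5637483 to 5648130, plus strand). Rela stood at 69.3, 68.0 and 72.8 TPM in WT c-kit- and at 59.1, 57.8 and 60.8 TPM in WT c-kit+, while the libraries labelled IRF7-/- c-kit+ held 49.2, 52.9 and 51.0 TPM. The groups did not overlap, but the steps were small. Rela fell by 0.24 on the log2 scale in WT c-kit+ (SE 0.06, adjusted p = 0.0149) and by a further 0.21 in the libraries labelled IRF7-/- c-kit+ (SE 0.06, adjusted p = 0.0190). Relative to the median of all genes these were −0.16 and −0.33. The first did not pass after quantile normalization (−0.05, adjusted p = 0.502) or median centring (−0.08, adjusted p = 0.296), which move the median of all genes in that comparison from −0.08 to 0.07. It also did not pass without WT c-kit+ replicate 1 (adjusted p = 0.0509) or with the neutrophil genes left out and the libraries rescaled (adjusted p = 0.160). The second did not pass when any of 4 of its 6 libraries was left out (WT c-kit+ replicate 1 or 3, or replicate 1 or 3 of the other group), with adjusted p up to 0.0770. Over the whole span from WT c-kit- the fall was 0.45 (SE 0.06, adjusted p = 0.000682), and it passed under all 14 alternatives.

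Rel encodes c-Rel, a subunit found mainly in blood cells. It lies on chromosome 11 (23736847 to 23770970, minus strand). Its levels were 25.4, 23.6 and 24.3 TPM in WT c-kit- and 10.1, 11.3 and 10.5 TPM in WT c-kit+, while the libraries labelled IRF7-/- c-kit+ held 6.84, 6.92 and 5.72 TPM. Each group was below the one before it without overlap. Rel fell by 1.13 at the first step (SE 0.08, adjusted p = 9.72e-05) and by 0.63 at the second (SE 0.11, adjusted p = 0.00355).

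Nfkb2 and Relb encode the pair of subunits of the alternative pathway, in which p100 is cut to p52 and joins RelB. Nfkb2 lies on chromosome 19 (46304320 to 46312385, plus strand) and Relb on chromosome 7 (19606217 to 19629438, minus strand). Nfkb2 was at 25.1, 22.8 and 31.0 TPM in WT c-kit- and at 15.1, 15.1 and 15.9 TPM in WT c-kit+, while the libraries labelled IRF7-/- c-kit+ held 8.55, 9.01 and 9.26 TPM. The 3 groups were apart at both steps. Nfkb2 fell by 0.72 at the first (SE 0.12, adjusted p = 0.00329) and by 0.72 at the second (SE 0.08, adjusted p = 0.00075). The library kit does not mark strand, and Nfkb2 shares 531 of its 4584 exon bases with AC114539.1, a noncoding gene on the other strand. AC114539.1 averaged 13.7, 22.3 and 15.1 TPM in the same order of groups, highest where Nfkb2 was in the middle. Nfkb2 also shares 299 exon bases with Psd, a protein-coding gene on the other strand. Psd averaged 6.15, 5.77 and 2.497 TPM and so fell in its means in the same order as Nfkb2, mostly at the second step. The part of shared reads in the Nfkb2 values was not tested.

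Relb was the scarcest subunit, at 10.1, 8.35 and 15.1 TPM in WT c-kit- and 3.86, 3.54 and 3.46 TPM in WT c-kit+, while the libraries labelled IRF7-/- c-kit+ held 1.71, 1.35 and 2.48 TPM. The third WT c-kit- library was the highest, yet all 3 groups stayed apart. Relb fell by 1.36 at the first step (SE 0.20, adjusted p = 0.00221) and by 0.72 at the second (SE 0.17, adjusted p = 0.0137). As a ratio of mean TPM, Relb in the libraries labelled IRF7-/- c-kit+ was 0.510 times that in WT c-kit+ and 0.165 times that in WT c-kit-. The log2(TPM + 1) scale understates changes of genes as low as Relb.

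Nfkbia and Nfkbie, which encode the cytoplasmic inhibitors IkappaB-alpha and IkappaB-epsilon, differed little between the c-kit+ groups. Nfkbia lies on chromosome 12 (55489410 to 55492647, minus strand). It held 67.5, 71.0 and 112 TPM in WT c-kit- and 91.4, 93.9 and 94.8 TPM in WT c-kit+, while the libraries labelled IRF7-/- c-kit+ held 72.5, 72.7 and 82.6 TPM. The third WT c-kit- library was above all others, while the other 2 of its group were the lowest of the 9. From WT c-kit- to WT c-kit+ the change of Nfkbia was 0.20 (95% confidence interval −0.25 to 0.64, adjusted p = 0.444). Without the third WT c-kit- library it was 0.43 and passed (adjusted p = 0.00347). At the second step Nfkbia fell by 0.30 (SE 0.07, adjusted p = 0.0103), a call that did not hold when all 9 libraries shared 1 estimate of the spread (adjusted p = 0.174).

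Nfkbie lies on chromosome 17 (45555703 to 45563169, plus strand). It was at 12.9, 11.9 and 12.7 TPM in WT c-kit- and at 9.62, 8.07 and 10.1 TPM in WT c-kit+, while the libraries labelled IRF7-/- c-kit+ held 8.90, 8.57 and 9.23 TPM. The c-kit+ groups overlapped, and both lay below WT c-kit-. Nfkbie fell by 0.40 at the first step (SE 0.11, adjusted p = 0.0266), a call held by 6 of 14 alternatives, with adjusted p between 0.00957 and 0.136. At the second step the change was −0.05 (95% confidence interval −0.30 to 0.21, adjusted p = 0.746).

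Nfkbiz and Bcl3 encode IkappaB-zeta and Bcl-3, atypical IkappaB proteins that act in the nucleus on p50 or p52 and can switch target genes on. Nfkbiz lies on chromosome 16 (55811375 to 55838899, minus strand). It held 23.2, 40.2 and 44.5 TPM in WT c-kit- and 15.5, 22.4 and 12.6 TPM in WT c-kit+, while the libraries labelled IRF7-/- c-kit+ held 1.36, 2.31 and 1.98 TPM. The last group was far below both others, which nearly touched. Nfkbiz fell by 2.61 between the c-kit+ groups (SE 0.23, adjusted p = 0.000307), where its change was the 131st from the lowest of 13238 genes, and the ratio of mean TPM was 0.112. The fall held under all 14 alternatives, between 2.39 and 3.08 in size. At the first step Nfkbiz fell by 1.04 (SE 0.29, adjusted p = 0.0273), a call held by 9 of 14 alternatives. It did not pass without a filter on low values (adjusted p = 0.0672) or without WT c-kit- replicate 2 or 3 or WT c-kit+ replicate 1 or 3 (adjusted p between 0.0742 and 0.0845).

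Bcl3 was lowest in WT c-kit+ and was the member that rose at the second step. It lies on chromosome 7 (19808462 to 19822770, minus strand). Its levels were 12.4, 16.6 and 19.9 TPM in WT c-kit- and 6.19, 6.55 and 6.33 TPM in WT c-kit+, while the libraries labelled IRF7-/- c-kit+ held 8.47, 8.34 and 8.61 TPM. The last group lay between the others without overlap. Bcl3 fell by 1.21 at the first step (SE 0.17, adjusted p = 0.00158) and rose by 0.37 at the second (SE 0.09, adjusted p = 0.0141), or 0.25 above the median of all genes. The rise kept its direction under all 14 alternatives and its call under 10. The call did not hold when all 9 libraries shared 1 estimate of the spread (adjusted p = 0.0706), after leaving out the neutrophil genes and rescaling (0.25, adjusted p = 0.0532), or without replicate 1 or 3 of the libraries labelled IRF7-/- c-kit+ (adjusted p = 0.0503 and 0.0529). Gm16175, an antisense gene that shares 161 exon bases with Bcl3, averaged 0.74 TPM in WT c-kit- and was at 0 in the other 6 libraries. Gm16174, which overlaps Bcl3 but shares 0 exon bases with it, averaged 2.76, 1.66 and 0.493 TPM in the 3 groups. Their part in the Bcl3 values was not tested.

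Tnfaip3 encodes A20, an enzyme that edits ubiquitin chains and shuts off signals upstream of IkappaB kinase. It lies on chromosome 10 (19000910 to 19015657, minus strand). It stood at 16.3, 15.9 and 18.4 TPM in WT c-kit- and at 11.01, 10.8 and 12.2 TPM in WT c-kit+, while the libraries labelled IRF7-/- c-kit+ held 6.57, 5.91 and 6.78 TPM. The groups stepped down without overlap. Tnfaip3 fell by 0.53 at the first step (SE 0.10, adjusted p = 0.00506) and by 0.73 at the second (SE 0.10, adjusted p = 0.00156), and both calls held under all 14 alternatives.

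Against WT c-kit-, the libraries labelled IRF7-/- c-kit+ had the largest fall in Nfkbiz, by 3.64 (SE 0.26, adjusted p = 5.58e-05), followed by Relb, by 2.08 (SE 0.24, adjusted p = 0.000441), and Rel, by 1.76 (SE 0.10, adjusted p = 2.31e-05). Nfkb2 fell by 1.45, Nfkb1 by 1.37 and Tnfaip3 by 1.27. Bcl3 fell by 0.85, and Nfkbie and Rela by 0.45 each. Nfkbia did not pass, at −0.10 (95% confidence interval −0.56 to 0.35, adjusted p = 0.670). The 9 falls held under all 14 alternatives. In bulk RNA, fewer cells of a type and less RNA per cell cannot be told apart in any of these values.

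**Figure D2:**
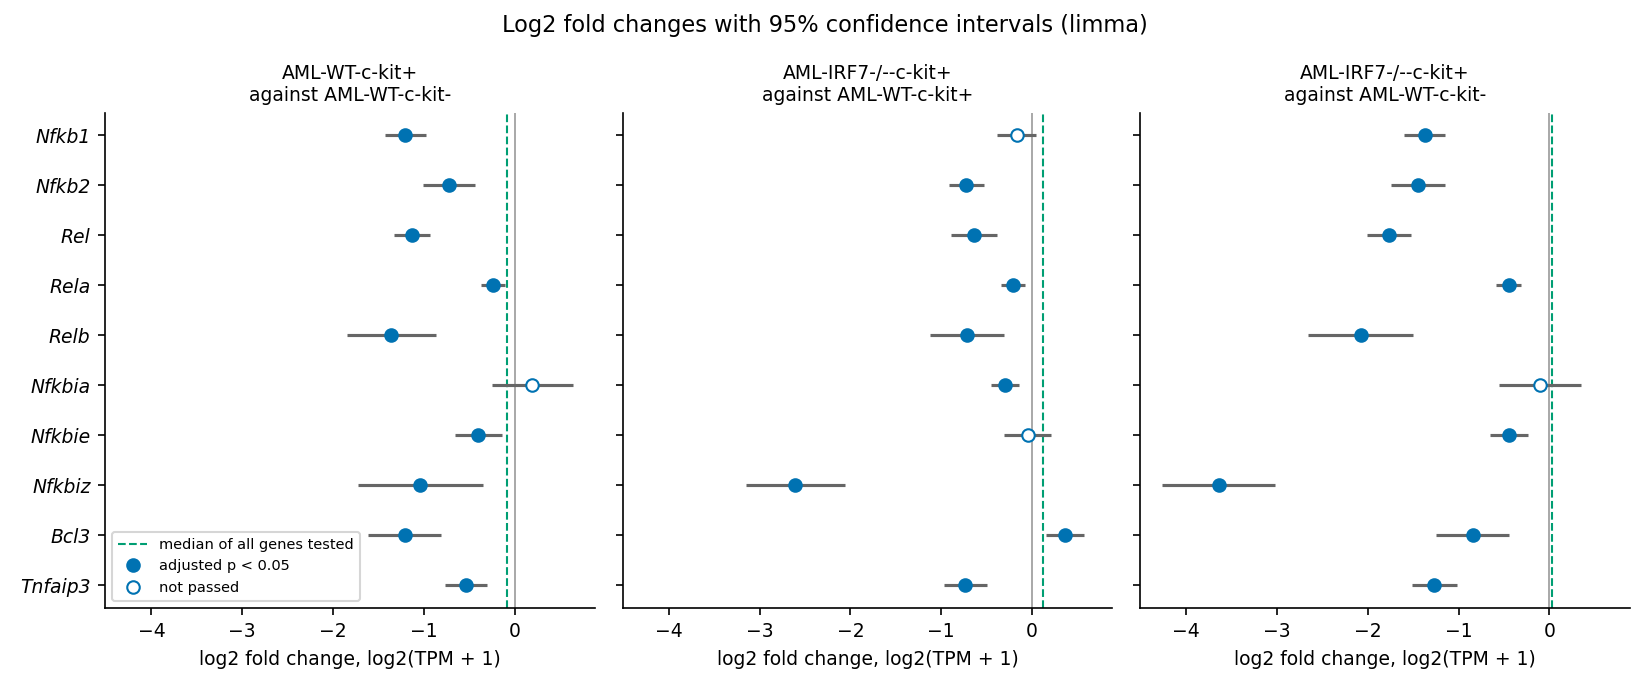
Log2 fold change on the log2(TPM + 1) scale (horizontal axis) of each of the 10 genes in the 3 comparisons, with lines for 95% confidence intervals, filled points for an adjusted p under 0.05 (limma) and a dashed line at the median of all genes tested. In the middle panel Nfkbiz stands at −2.61, Bcl3 at 0.37 is the gene to the right of 0, and Nfkb1 and Nfkbie have open points.

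The order of levels within a group can be read from TPM, which are per length. Nfkb1, Nfkbia and Rela took the first 3 places in every group. Nfkbiz followed in WT c-kit- (36.0 ± 11.2 TPM, SD, n = 3) and in WT c-kit+ (16.8 ± 5.04 TPM), where Nfkb2 (15.4 ± 0.454 TPM) lay within its spread. In the libraries labelled IRF7-/- c-kit+ Nfkbiz (1.88 ± 0.482 TPM) was beside Relb (1.85 ± 0.577 TPM) at the end of the order, and these neighbours did not differ beyond their spread. Bcl3 and Nfkbie were also neighbours there, at 8.47 ± 0.135 and 8.90 ± 0.330 TPM, and so were Rel and Tnfaip3, at 6.49 ± 0.671 and 6.42 ± 0.454 TPM.

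Together the 5 subunits summed to 484 ± 30.8 TPM in WT c-kit- (SD, n = 3), 241 ± 12.6 TPM in WT c-kit+ and 204 ± 14.3 TPM in the libraries labelled IRF7-/- c-kit+. Nfkb1 supplied 71.1%, 75.9% and 71.0% of the sum in the WT c-kit- libraries, 61.3%, 65.3% and 62.5% in WT c-kit+ and 65.6%, 68.1% and 65.5% in the libraries labelled IRF7-/- c-kit+. Its share was thus highest in c-kit- cells. Rela took 14.5% ± 1.06 in WT c-kit-, 24.6% ± 1.60 in WT c-kit+ and 25.1% ± 0.894 in the libraries labelled IRF7-/- c-kit+. The c-kit+ groups overlapped in the share of Rela (exact two-sided permutation p = 0.7), while WT c-kit- lay below both (exact permutation p = 0.1 for each). Nfkb2, Rel and Relb each held a smaller share in the libraries labelled IRF7-/- c-kit+ than in WT c-kit+. Nfkb2 went from 6.40% ± 0.365 to 4.403% ± 0.289, Rel from 4.402% ± 0.0595 to 3.19% ± 0.334 and Relb from 1.51% ± 0.162 to 0.918% ± 0.320, all without overlap (exact permutation p = 0.1 for each). With 3 libraries against 3 these exact permutation tests cannot go below p = 0.1, and over the 15 comparisons the adjusted exact p was at least 0.136, so no difference in share passed.

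**Figure D3:**
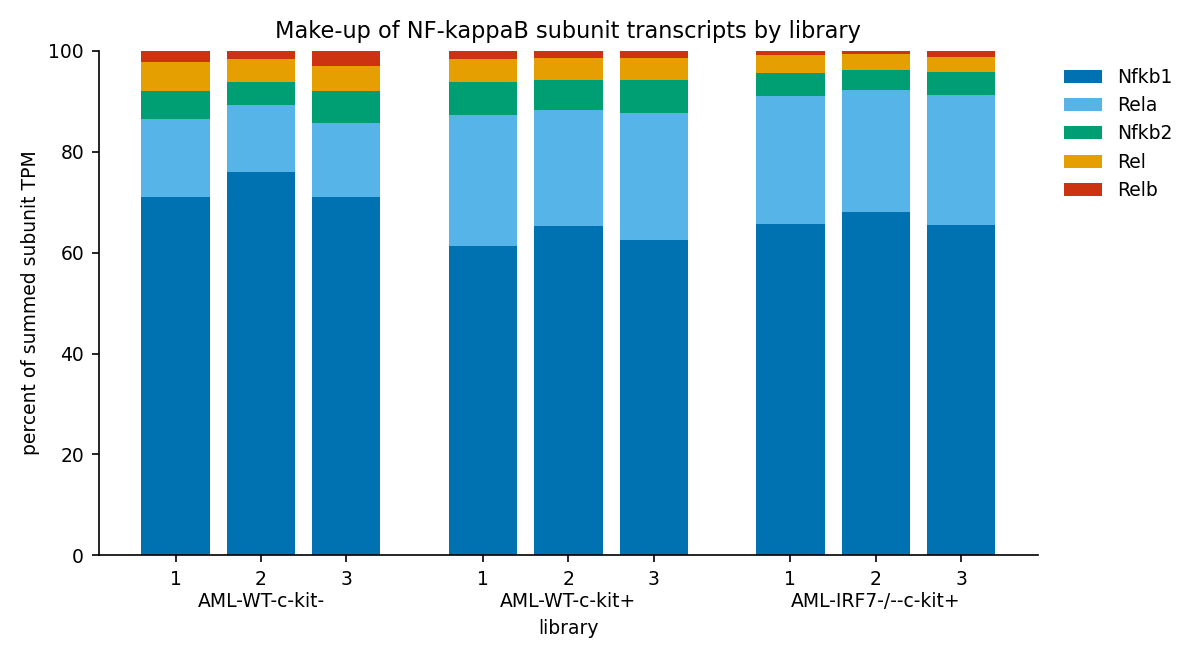
Percent of the summed subunit TPM (vertical axis) held by each of the 5 subunits in each of the 9 libraries. The Rela segment is between 13.4% and 15.4% in WT c-kit- and between 22.8% and 25.9% in the other 6 libraries.

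Genes around these 10 were taken from 5 lists: receptors, kinases and adaptors, other brakes, target genes, and immediate early genes. Target genes share 5 genes with the brakes and 2 with the receptors. The shares and medians of all genes given above are the background to each count. Of 21 receptors that feed the pathway, 13 of the 19 tested fell and 2 rose in WT c-kit+ against WT c-kit-, with a median log2 fold change of −1.32. The falls were largest for Tlr9, a sensor of DNA (from a mean of 32.4 to 2.30 TPM), Cd40, a receptor of the TNF family (11.46 to 0.857 TPM), and Tlr2, a receptor for bacterial lipoproteins (60.3 to 11.03 TPM). Tlr4, the lipopolysaccharide receptor, rose (4.16 to 9.31 TPM, log2 fold change 1.00, SE 0.20, adjusted p = 0.00768). At the second step receptors went both ways, with 4 of 16 lower, 3 higher and a median of −0.17. Cd14, the co-receptor for lipopolysaccharide, fell from 65.4 to 9.44 TPM and Il18r1, a receptor chain for interleukin 18, from 3.90 to 0.05 TPM, whereas Tlr6 and Tlr1, partners of Tlr2, rose from 1.87 to 10.3 TPM and from 5.12 to 18.6 TPM. Tlr2 itself fell, from 11.03 to 3.40 TPM (log2 fold change −1.48, SE 0.20, adjusted p = 0.00166). Against WT c-kit-, 11 of 18 receptors were lower and 2 higher in the libraries labelled IRF7-/- c-kit+, with a median of −0.78.

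The kinases and adaptors moved at the c-kit step and little between the c-kit+ groups. In WT c-kit+ against WT c-kit-, 16 of 26 fell and 1, Traf3, rose (median −0.41), beside 27.6% and 14.0% of all genes tested. At the second step, 4 of 25 fell, 1 rose and 20 did not pass (median −0.05), and none of the calls reached a log2 fold change of 1. Of all genes tested there, 16.1% fell and 31.9% rose, so the share of falls was near that of all genes. Against WT c-kit-, the libraries labelled IRF7-/- c-kit+ had 16 of 26 lower and 3 higher (median −0.38). Ikbkb, the kinase of the main pathway, was at 166 ± 6.62 TPM (SD, n = 3) in WT c-kit-, at 76.6 ± 1.53 TPM in WT c-kit+ and at 72.2 ± 4.48 TPM in the libraries labelled IRF7-/- c-kit+. It fell by 1.11 at the first step (SE 0.05, adjusted p = 2.72e-05) and was at −0.09 at the second (adjusted p = 0.288). Map3k14, which encodes NIK, the kinase that starts the alternative pathway, fell from 22.01 ± 1.098 to 9.67 ± 1.85 TPM at the first step (log2 fold change −1.12, SE 0.14, adjusted p = 0.000872) and was at 7.01 ± 0.338 TPM in the libraries labelled IRF7-/- c-kit+ (adjusted p = 0.0534 against WT c-kit+). Chuk, the kinase that acts on p100, fell by 0.68 at the first step and was 0.26 higher at the second, without passing (adjusted p = 0.0844). Ikbkg, the scaffold of the kinase complex, passed at neither step (adjusted p = 0.484 and 0.197). Traf5 and Malt1, an adaptor of TNF receptors and a protease of antigen receptor signals, also fell at the first step, from 23.4 to 7.47 TPM and from 61.6 to 24.997 TPM.

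The other IkappaB proteins and brakes were mixed at the first step, with 4 of 16 lower, 4 higher and a median of −0.08. Of all genes tested, 27.6% fell and 14.0% rose at that step, and 16.1% fell and 31.9% rose at the second. Between the c-kit+ groups 8 of 15 fell and 0 rose by limma at an adjusted p under 0.05, with a median of −0.23. Rises among these brakes were also 0 at an unadjusted p under 0.05. Against WT c-kit-, 10 of 16 were lower and 2 higher in the libraries labelled IRF7-/- c-kit+ (median −0.41). Nfkbid encodes IkappaBNS, a nuclear relative of IkappaB-zeta. It held 31.5, 55.5 and 60.3 TPM in WT c-kit- and 30.4, 39.3 and 25.6 TPM in WT c-kit+, while the libraries labelled IRF7-/- c-kit+ held 11.97, 13.1 and 12.3 TPM. Like Nfkbiz it was lowest in the last group without overlap, and it fell there by 1.26 against WT c-kit+ (SE 0.15, adjusted p = 0.000978). Zc3h12a, which encodes the RNase Regnase-1 that degrades cytokine mRNAs, fell from 18.0 ± 3.11 to 8.38 ± 0.922 TPM (log2 fold change −1.01, SE 0.14, adjusted p = 0.00191). Otud7b, a deubiquitinase that restrains the alternative pathway, was the brake past both thresholds at the first step, where it rose from 2.60 to 6.34 TPM.

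Known target genes went both ways. At the first step 10 of 34 tested fell and 7 rose (median −0.41), where 27.6% of all genes tested fell and 14.0% rose. Between the c-kit+ groups 14 of 29 fell and 6 rose (median −0.32), beside 16.1% and 31.9% of all genes tested. Against WT c-kit-, 16 of 33 were lower and 7 higher in the libraries labelled IRF7-/- c-kit+ (median −0.88), beside 28.7% and 30.7%. The largest falls at the second step were in the chemokine gene Ccl3 (from a mean of 178 to 19.3 TPM), the cytokine gene Il1b (5.56 to 0.103 TPM) and the kinase gene Pim1 (45.6 to 7.78 TPM). Tnf fell from 17.9 ± 2.20 to 5.79 ± 1.45 TPM (log2 fold change −1.49, SE 0.18, adjusted p = 0.000973). Rises were led by Vcam1, an adhesion molecule, at 9.20, 7.42 and 12.7 TPM in WT c-kit+, while the libraries labelled IRF7-/- c-kit+ held 106, 76.9 and 107 TPM (log2 fold change 3.19, SE 0.20, adjusted p = 0.000101). Vcam1 also rose at the first step, from a mean of 0.347 to 9.76 TPM (log2 fold change 2.97, SE 0.21, limma adjusted p = 8.32e-05). At the second step Gadd45b, a stress response gene, rose from 25.5 to 84.95 TPM and the chemokine gene Cxcl10 from 1.33 to 4.39 TPM. Icam1, another adhesion molecule, was at 11.6 ± 1.17, 5.11 ± 0.476 and 12.5 ± 2.57 TPM across the 3 groups, falling at the first step and rising at the second (adjusted p = 0.000704 and 0.00163). Birc3, which encodes the ubiquitin ligase cIAP2, fell from 69.7 to 29.3 TPM at the first step and did not pass at the second (25.1 TPM, adjusted p = 0.219).

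**Figure D4:**
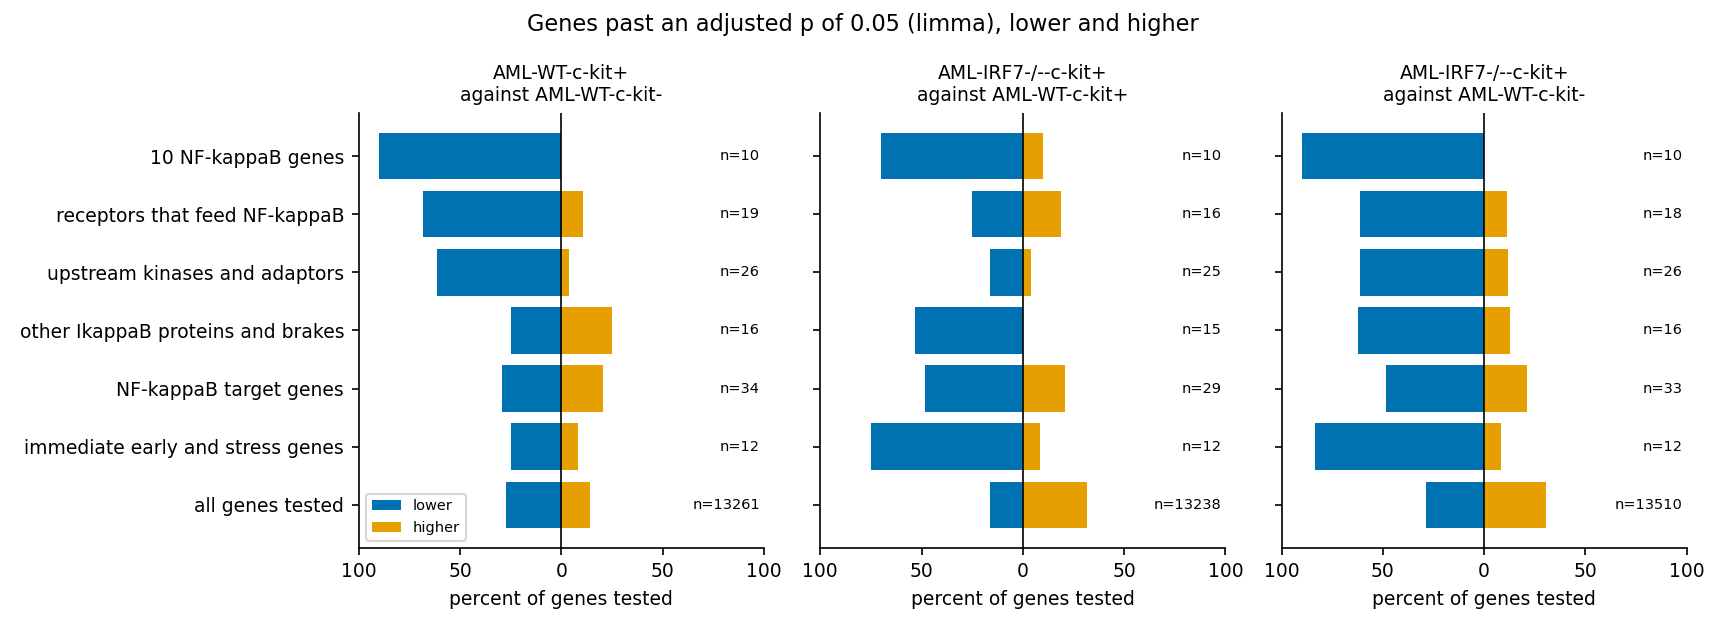
Percent of the genes tested in each list (horizontal axis) that were lower (left of 0) or higher (right of 0) in the group named first, at an adjusted p under 0.05 by limma, with the number tested at the right. Between the c-kit+ groups, 8 of 15 other brakes fell and 0 rose, and 20 of 25 kinases and adaptors did not pass.

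Immediate early and stress genes, which cells switch on within minutes of a stimulus and also during cell handling, mostly fell between the c-kit+ groups, as Nfkbiz did. Between the c-kit+ groups 9 of 12 fell and 1 rose (median −2.43), and against WT c-kit- 10 of 12 were lower and 1 higher in the libraries labelled IRF7-/- c-kit+ (median −2.90). At the first step 3 fell, 1 rose and 8 did not pass (median −0.46). Of all genes tested, 27.6% fell and 14.0% rose at the first step, and 16.1% fell and 31.9% rose at the second. The summed level of the 12 genes was 1793 to 3811 TPM in WT c-kit-, 1499 to 2631 TPM in WT c-kit+ and 754 to 1113 TPM in the libraries labelled IRF7-/- c-kit+. Jun fell from 262, 454 and 132 TPM in WT c-kit+ to 17.9, 5.54 and 50.5 TPM (log2 fold change −3.76, SE 0.77, adjusted p = 0.00759), and Atf3 and Egr1 fell from means of 9.19 to 0.307 TPM and of 102 to 17.7 TPM. Fos and Fosb overlapped between the c-kit+ groups and did not pass (−0.77 and −1.74, limma adjusted p = 0.257 and 0.0667). Zfp36, which encodes an RNA-binding brake on cytokine mRNAs, was at 247, 367 and 158 TPM in WT c-kit+, while the libraries labelled IRF7-/- c-kit+ held 33.6, 34.9 and 54.4 TPM. Nfkbiz, Jun and Zfp36 were all highest in the second WT c-kit+ library and lowest in the third, but in the libraries labelled IRF7-/- c-kit+ Jun was highest in the third and Nfkbiz in the second. In WT c-kit- these genes were all lowest in the first library. There Nfkbiz was highest in the third (44.5 TPM), while Jun and Zfp36 were highest in the second (539 and 579 TPM). The part of this response in the values of Nfkbiz, Nfkbid and Tnfaip3 was not tested.

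**Figure D5:**
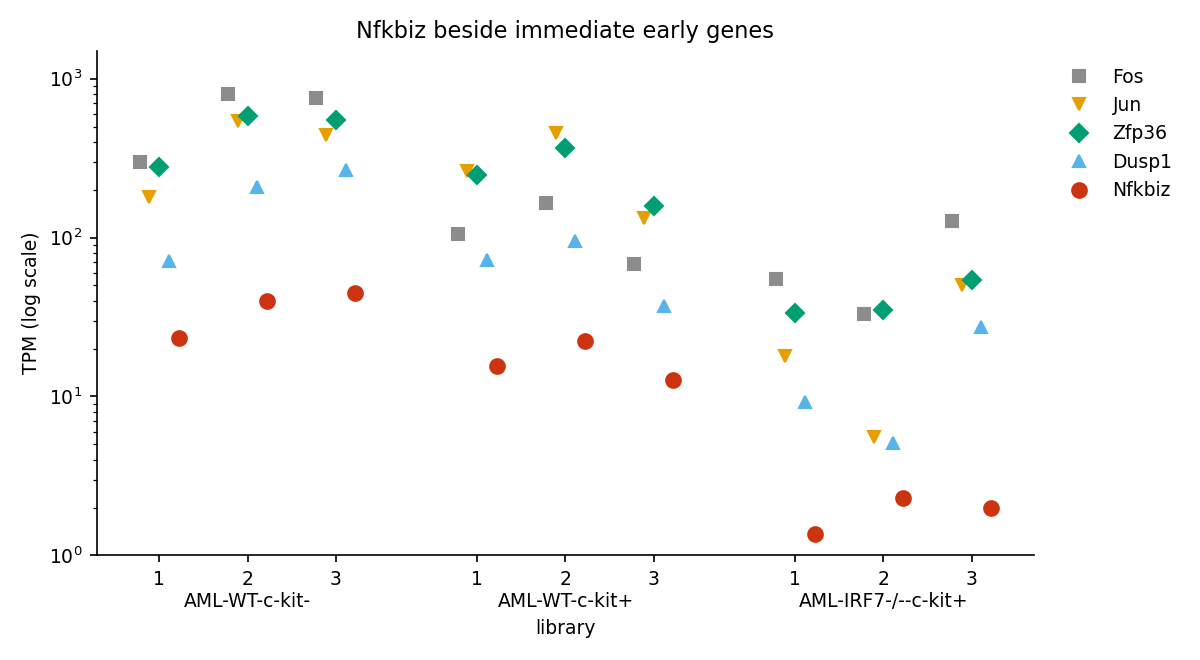
TPM on a log scale (vertical axis) of Nfkbiz and the immediate early genes Fos, Jun, Zfp36 and Dusp1 in each of the 9 libraries (horizontal axis). Nfkbiz is at 1.36 to 2.31 TPM in the libraries labelled IRF7-/- c-kit+, where Zfp36 is at 33.6 to 54.4 TPM against 158 to 579 TPM in the other 6 libraries.

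Markers of other cells and of maturation also moved with the groups. The 16 neutrophil maturation genes summed to 7128, 8606 and 33218 TPM in WT c-kit-, to 58599 to 114263 TPM in WT c-kit+ and to 2087 to 2997 TPM in the libraries labelled IRF7-/- c-kit+, with none of them at 0 in a whole group. In WT c-kit+ most of the sum was S100a9 and S100a8, at means of 39669 and 24525 TPM. The 16 genes did not move together at the first step, where 5 rose, 10 did not pass and 1 fell. The fall was that of Mmp8, from a mean of 74.6 to 4.68 TPM. The third WT c-kit- library, which stands apart in the neutrophil sum, was also the highest of its group for Nfkbia, Rela, Relb, Nfkb2, Nfkbiz, Bcl3 and Tnfaip3. Without it, 8 of the 10 genes passed at the first step, Nfkbia among them as a rise, and 9 passed in the libraries labelled IRF7-/- c-kit+ against WT c-kit-. With the 16 neutrophil genes left out and the libraries rescaled, 7, 8 and 9 of the 10 passed in the 3 comparisons. The 12 monocyte and macrophage genes summed to 3952 to 4562 TPM in WT c-kit-, 2048 to 2294 TPM in WT c-kit+ and 2394 to 2972 TPM in the libraries labelled IRF7-/- c-kit+, an order in which no member but Bcl3 ran. The 6 T cell genes summed to at most 5.18 TPM and the 6 erythroid genes to at most 10.2 TPM in any library. Among B cell genes, Ighm, the heavy chain of IgM, averaged 417, 129.8 and 82.5 TPM in the 3 groups, an order of means that most of the NF-kappaB genes shared. Ighm fell by 1.67 at the first step (SE 0.11, adjusted p = 6.73e-05) and was at −0.73 at the second, where the groups overlapped (adjusted p = 0.0698). Cd79b, a chain of the B cell receptor, averaged 32.8, 29.4 and 32.8 TPM and passed at neither step, while Cd79a was at or under 1.11 TPM and Pax5 and Ms4a1 at or under 0.32 TPM in all 9 libraries. The 7 endothelial and stromal genes summed to 44.6 to 59.8 TPM in WT c-kit-, 17.0 to 30.8 TPM in WT c-kit+ and 32.3 to 56.2 TPM in the libraries labelled IRF7-/- c-kit+. Most of this sum was Lepr, the leptin receptor and a marker of marrow stroma, at means of 48.7, 22.5 and 41.2 TPM. Lepr fell by 1.11 at the first step (SE 0.23, adjusted p = 0.00813) and rose by 0.85 at the second (SE 0.27, adjusted p = 0.0385), while the endothelial marker Emcn was at 0 in 8 of the 9 libraries. The other stromal genes of the list were low, unlike Lepr. Cxcl12 averaged 0.47, 0.203 and 1.34 TPM in the same order of groups, Col1a1 0.67, 0.677 and 0.293 TPM, and Col1a2 0.43, 0.213 and 0.2 TPM. The 5 megakaryocyte genes summed to 2.01 to 3.31 TPM in WT c-kit-, 10.4 to 11.3 TPM in WT c-kit+ and 9.94 to 13.9 TPM in the libraries labelled IRF7-/- c-kit+. The part of these signals in the NF-kappaB values was not tested.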

How the data were processed

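Leukemia cells from mouse bone marrow were profiled by RNA sequencing in 9 libraries, grouped by their labels. The deposited table gives TPM, made by the authors, for 55536 genes. No header names the unit, which was taken from the column sums of 987468 to 992231. The aligner, build, filters and strand setting are not given in the sources used here. All 55536 gene identifiers are in GENCODE M21 (GRCm38), which gave the coordinates. All value columns were used. TPM keep no depth, so the depth is unknown and no counting intervals are given, and abundant genes in a group lower all others there.

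The members and gene lists were chosen with earlier results of these data known. For each comparison, limma (version 3.58.1 under R 4.3.3, lmFit then eBayes, trend on) was run on log2(TPM + 1) of its 6 libraries. Genes under 1 TPM in more than 3 of them were dropped. P-values were adjusted by the Benjamini-Hochberg method over all genes tested. Calls used an adjusted p under 0.05, alone or together with a log2 change of 1 or more in size. The limma fit was also run on simulated data with known changes and independent noise. That simulation held no difference in scaling between groups and no shared replicate effect, so it does not bear on either. Shares of the subunit sum were compared by exact two-sided permutation tests. Besides the 10 members, genes named were Irf7, Kit, Vcam1, Nfkbid, Tnf, Il1b, Icam1, Birc3, Chuk, Ikbkb, Ikbkg, Map3k14 and, per list and comparison, up to 3 in each direction past both thresholds without overlap, with the largest changes. Traf3, Fos, Fosb, Zfp36 and the marker genes were named outside this rule, after their values were seen. A gene of a marker list is not reported here.

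Alternatives were quantile normalization, median centring, no filter or 5 TPM as the filter, 0.1 as the pseudocount, a single fit of all 9 libraries, a block for the replicate number, leaving out each library in turn, and, added after seeing the data, the neutrophil genes left out with rescaling.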

Additional observations from a re-analysis of the deposited data

How the results depend on the processing

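Of 419 alternative values of the 10 genes, 388 kept their direction and their side of the threshold, 26 lost the call, 3 gained one and 2 turned in direction. The 2 that turned had not passed: Nfkbie between the c-kit+ groups (0.012 without WT c-kit+ replicate 3, lowest of the values with a library left out −0.13) and Nfkbia in the libraries labelled IRF7-/- c-kit+ against WT c-kit- (0.13 without WT c-kit- replicate 3, lowest −0.24). The share of Rela between the c-kit+ groups turned to −0.409 percentage points without WT c-kit+ replicate 2, and was at most 1.12 with another library left out. Leaving out 1 library gave 6 to 8 members changed at the first step, 6 to 8 between the c-kit+ groups and 9 in the third comparison. A filter of 5 TPM, which tests fewer genes, gave 1015 genes past both thresholds between the c-kit+ groups against 1548, and left no value for Relb there. In WT c-kit+ against WT c-kit-, lower genes made up 66.5% of calls past both thresholds, but 57.4% after quantile normalization and 56.3% after median centring. Between the c-kit+ groups they made up 46.1%, and 52.0% after quantile normalization, 51.9% after median centring, 53.1% with the neutrophil genes left out, and 37.9% to 55.2% with 1 library left out. The causes of the other shifts were not tested.

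The deviations of same-numbered libraries from their group means had correlations of −0.07 to 0.24. The highest was between the second libraries of WT c-kit- and WT c-kit+. Pairs with unlike numbers were not set beside these, and no label says that a number marks a shared batch. With the replicate block, 9, 8 and 9 members passed, as without it, and 1950, 1549 and 2749 genes passed both thresholds. TPM and 3 libraries per group limit what can be detected for low genes such as Relb and Nfkbiz.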

Other observations

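The cytoplasmic inhibitors were set against the subunits after their values were seen, as a description with no test. Nfkbia and Nfkbie together came to 17.9%, 16.3% and 25.4% of the summed TPM of the 5 subunits in WT c-kit-, to 44.3%, 40.3% and 43.4% in WT c-kit+ and to 42.2%, 37.0% and 46.3% in the libraries labelled IRF7-/- c-kit+. The c-kit+ groups overlapped, and all 6 c-kit+ libraries lay above the 3 WT c-kit- libraries. The sum was mostly Nfkb1, which fell from WT c-kit- to WT c-kit+, while Nfkbia averaged 83.7 and 93.4 TPM in WT c-kit- and WT c-kit+.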
